A study of Drosophila melanogaster with 6 samples.

Results

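Escargot (esg), Sox21a, Sox100B, headcase (hdc), zfh2, miranda (mira), sanpodo (spdo), tramtrack (ttk) and Snoo are 9 genes that set the identity and fate of stem cells in the fly midgut or act in asymmetric cell division. They were taken by exact symbol from a table of 13189 genes with at least 1 unique molecular identifier (UMI) in 6 Drosophila melanogaster libraries, and all 9 had UMIs. Case was kept in the match because Hdc, a separate gene with 3 UMIs, differs from hdc, with 779 UMIs, only in its capital letter.

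The libraries were made from intestinal progenitor cells sorted for GFP, with 3 libraries labelled Pex5-depleted and 3 labelled wild-type, called control here. Each replicate pooled 200 guts and about 40000 sorted cells, so a value averages stem cells, their undifferentiated daughters and any other sorted cell. The sorting gate was set on esgGFP>w1118 flies, in which the marker follows the esg promoter, and on w1118 flies without GFP. How Pex5 was depleted, and the sex and age of the flies, are not given in the labels. Pex5, the gene of the peroxisomal import receptor, had 2, 21 and 41 UMIs in libraries labelled Pex5-depleted 1, 2 and 3, against 8, 6 and 14 UMIs in control libraries 1, 2 and 3. That is 0.73, 4.41 and 14.0 CPM (counts per 1000000 UMIs, scaled by library size and TMM factor) against 2.17, 2.05 and 3.74 CPM, so that 2 of the 3 libraries labelled Pex5-depleted lay above every control. Its log2 fold change was 1.24 (SE 0.87) and did not pass (adjusted p = 0.607 by edgeR). The group is therefore named by its label throughout, with each direction below resting on the label.

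The adult midgut is renewed by intestinal stem cells that divide into a new stem cell and a daughter, which becomes an enterocyte after strong Notch signalling or an enteroendocrine cell by another route. Transcription factors such as esg hold these progenitors undifferentiated, and others such as Sox21a move them towards differentiation. In dividing fly neuroblasts, mira and spdo act in handing fate determinants and Notch activity unequally to the daughter cells.

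Depth was 2573882 to 4793433 UMIs per library, and a count of 0 in 1 library allows up to 3 UMIs, which is 0.63 to 1.09 CPM. The sorted pool held progenitor transcripts beside those of other gut cells. Delta (Dl), the Notch ligand of midgut stem cells, was at 1.45, 21.4 and 18.8 CPM in libraries labelled Pex5-depleted 1, 2 and 3, and at 3.80, 4.78 and 11.7 CPM in control libraries 1, 2 and 3. The 1.45 CPM is 4 UMIs, close to the limit of 1.09 CPM in that library. The progenitor gene klu was at 12.0, 9.03 and 4.44 CPM in the same libraries labelled Pex5-depleted, and at 8.14, 4.44 and 10.4 CPM in the controls. The other progenitor markers, esg, Sox21a and N, are given below. The 27 enteroendocrine markers summed to 620 to 1102 CPM in the libraries labelled Pex5-depleted and 1186 to 3279 CPM in the controls. The 31 enterocyte markers, 29 of them detected, summed to 940 to 1138 CPM in the libraries labelled Pex5-depleted and 379 to 925 CPM in the controls. Of this, Jon25Biii alone gave 96.2, 141 and 341 CPM in libraries labelled Pex5-depleted 1, 2 and 3. It gave 8.69, 41.3 and 8.55 CPM in control libraries 1, 2 and 3. With Jon25Biii left out, the enterocyte sums of the groups overlap. Among the 16 enterocyte markers tested, 14 log2 fold changes were positive and 2 negative, those of mex1 (-0.16) and Jon25Bi (-1.10). At an adjusted p under 0.05 edgeR called 2 of the 16 higher and 0 lower, beside 1.65% of all tested genes in either direction. The groups did not overlap for 4 of the 16, beside 19.2% of all tested genes. Visceral muscle markers summed to 48.1 to 74.2 CPM in the libraries labelled Pex5-depleted and 74.7 to 83.3 CPM in the controls, with 15 of 18 detected, and most of this was Tm1. Haemocyte (7 of 9 detected), neuron and trachea (7 of 8) and germline (7 of 10) markers each summed to at most 21.9 CPM in any library. Fat body markers (7 of 9 detected) summed to 59.4 CPM in replicate 2 labelled Pex5-depleted, mostly from the yolk protein genes Yp1, Yp2 and Yp3, and to 4.78 to 9.44 CPM in the other 5 libraries. The muscle factor genes tin and bap, the haemocyte genes NimC1 and eater, and the germline gene vas matched no row of the UMI table.

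The 9 regulators fell into abundant and scarce genes. In the controls the order of mean levels was Sox21a, Sox100B, esg, hdc, mira, ttk, Snoo, zfh2 and spdo, and in the libraries labelled Pex5-depleted it was Sox21a, esg, Sox100B, mira, hdc, Snoo, ttk, zfh2 and spdo. Because the kit reads the 3′ ends of transcripts, these levels count ends and were not divided by transcript length, and capture may differ between genes. Among neighbours in the order, the ranges over 3 libraries were separate only between hdc and Snoo and between zfh2 and spdo in the libraries labelled Pex5-depleted, and between hdc and mira and between Snoo and zfh2 in the controls. All other neighbouring levels overlapped. On mean level in the controls Sox21a was in place 947 of the 13189 genes, esg in place 1316, mira in place 2729 and spdo in place 6200.

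**Figure D1:**
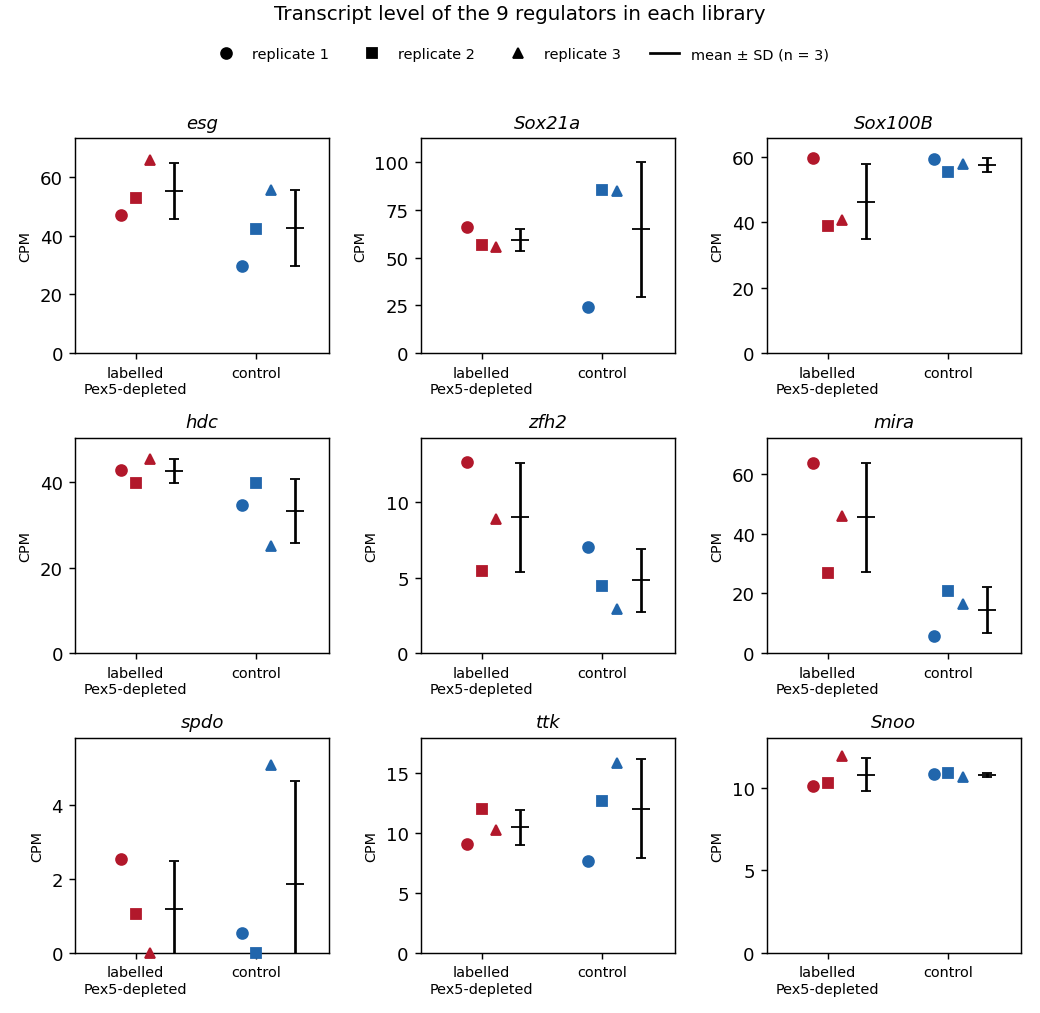
Transcript level (CPM, linear axes from 0) of the 9 regulators in each library, with the 3 libraries labelled Pex5-depleted left of the 3 controls, symbols for replicates and bars for mean ± SD (n = 3 each; the bars of spdo run below 0 and end at the axis). For mira the lowest library labelled Pex5-depleted, at 26.9 CPM, lies above the highest control, at 20.8 CPM, while for the other 8 genes the groups overlap.

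Of the 9 regulators, 8 passed the filter on low counts and were tested. None passed the threshold, an adjusted p under 0.05 in edgeR's quasi-likelihood test with Benjamini-Hochberg adjustment over 5639 genes, at which 1.65% of all tested genes were called. At an unadjusted p under 0.05 the same test had 1 of the 8, mira, against 13.2% of all tested genes, and DESeq2 called that 1 gene too (adjusted p = 0.0104), where it called 3.96% of its genes. Groups did not overlap for 1 of the 8 regulators, again mira, and for 19.2% of all tested genes. Each of these shares is 1 gene of 8. The median log2 fold change of the 8, 4 of them positive and 4 negative, was 0.18, beside 0.03 over all tested genes. In these bulk samples fewer cells of a type and less RNA per cell cannot be told apart.

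The asymmetric division genes differed most in how well they could be measured. Miranda is an adaptor protein that carries the fate determinants Prospero and Brat to 1 side of a dividing neuroblast. The mira transcript (FBgn0021776, chromosome 3R, 19931799 to 19935120, minus strand, dm6) was at 63.5, 26.9 and 45.8 CPM in libraries labelled Pex5-depleted 1, 2 and 3, against 5.70, 20.8 and 16.3 CPM in control libraries 1, 2 and 3. All 3 libraries labelled Pex5-depleted were above all 3 controls, as were 9.72% of all tested genes. The means were 45.4 ± 18.3 CPM and 14.3 ± 7.76 CPM (SD, n = 3 each). The fold was 3.18, with a 95% interval of 1.67 to 6.06, and the log2 fold change of 1.67 (SE 0.44) had an adjusted p of 0.0788 by edgeR with Benjamini-Hochberg adjustment, so the gene did not pass.

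The spread of mira within each group was far above counting error. The chi-square per degree of freedom of its UMIs, which is near 1 for counting error alone, was 28.7 among the libraries labelled Pex5-depleted and 14.8 among the controls. Leaving out control replicate 1, the lowest library, gave a log2 fold change of 1.28 (adjusted p = 0.231 by edgeR), and leaving out replicate 1 labelled Pex5-depleted, the highest, gave 1.35 (adjusted p = 0.268). Without control replicate 2 the value was 2.01 and passed (adjusted p = 0.0473 by edgeR). The gene also passed with no count filter (adjusted p = 0.00138 by edgeR). Enteroendocrine marker sums were separate between the groups as given above, and enterocyte sums only with Jon25Biii counted. Transcripts of the mitochondrial genome took 8.04% to 9.31% of UMIs in the libraries labelled Pex5-depleted and 5.63% to 7.44% in the controls. The part of these marker sums and mitochondrial transcripts in the mira difference was not tested. mira lies within the span of Hs6st on the same strand, which had 92 UMIs, and the annotated exons of the 2 genes share no base.

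Sanpodo is a transmembrane protein that promotes Notch signalling in the daughter cell that lacks Numb. The spdo transcript (FBgn0260440, chromosome 3R, 30476684 to 30478849, plus strand) had 7, 5 and 0 UMIs in libraries labelled Pex5-depleted 1, 2 and 3, against 2, 0 and 19 UMIs in control libraries 1, 2 and 3. Its 33 UMIs were too few for the filter, and no fold is given. Control replicate 3 alone held 19 of them, with an exact Poisson interval of 11.4 to 29.7 UMIs that covers counting error only. By the limit given above, the 0 in replicate 3 labelled Pex5-depleted and in control replicate 2 each allow up to 3 UMIs, or 1.03 and 1.02 CPM. The exact Poisson interval used for the 19 UMIs reaches further for a 0, to 3.69 UMIs, or 1.26 CPM in either library. Levels lower than these cannot be told from absence there. The gene lies within the span of PH4alphaEFB on the same strand, with 155 UMIs and no shared exon base.

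Escargot is a Snail-family zinc finger repressor whose loss lets midgut progenitors differentiate, and its promoter marked the sorted cells. The esg transcript (FBgn0001981, chromosome 2L, 15333866 to 15336138, plus strand, annotated as a single exon) was at 47.2, 52.9 and 65.96 CPM in libraries labelled Pex5-depleted 1, 2 and 3, against 29.6, 42.3 and 55.5 CPM in control libraries 1, 2 and 3. The groups overlapped, since control replicate 3 lay above both of the lower libraries labelled Pex5-depleted. The fold on the log2 scale was 0.38 (SE 0.28) and the edgeR adjusted p was 0.615. Its 95% interval ran from -0.21 to 0.97, which is a fold of 0.866 to 1.96.

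The Sox genes encode transcription factors with a high mobility group domain, and both were among the most abundant of the 9. Sox21a (FBgn0036411, chromosome 3L, 14103481 to 14108118, minus strand), known in midgut progenitors for driving differentiation, was at 66.1, 56.5 and 55.7 CPM in libraries labelled Pex5-depleted 1, 2 and 3, against 23.9, 85.6 and 84.9 CPM in control libraries 1, 2 and 3. The libraries labelled Pex5-depleted lay between control replicate 1 and the other two controls. With 59.4 ± 5.76 CPM and 64.8 ± 35.4 CPM (SD, n = 3 each), the fold on the log2 scale was -0.12 (SE 0.36), its 95% interval ran from -0.89 to 0.65, and the edgeR adjusted p was 0.929. Without control replicate 1 the value was -0.53 (adjusted p = 0.442 by edgeR), and the sign turned without control replicate 2 (0.10) or 3 (0.12). The chi-square per degree of freedom among the controls was 70.4, the highest of the 9 genes, and 0.0098 between control replicates 2 and 3 alone.

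Sox100B (FBgn0024288, chromosome 3R, 31065253 to 31083407, plus strand), the fly SoxE factor, showed the opposite pattern of spread. It was at 59.5, 38.9 and 40.7 CPM in libraries labelled Pex5-depleted 1, 2 and 3, against 59.5, 55.3 and 57.7 CPM in control libraries 1, 2 and 3. The controls differed by less than counting error (chi-square per degree of freedom 0.248), whereas replicate 1 labelled Pex5-depleted stood at the control level and the other two of its group below every control. The fold on the log2 scale was -0.31 (SE 0.25), its 95% interval ran from -0.84 to 0.22, and the edgeR adjusted p was 0.658. Without replicate 1 labelled Pex5-depleted it was -0.53 and did not pass (adjusted p = 0.479 by edgeR).

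Of the DNA-binding proteins at lower levels, zfh2, which has zinc fingers and homeodomains (FBgn0004607, chromosome 4, 501810 to 540874, plus strand), was at 12.7, 5.46 and 8.89 CPM in libraries labelled Pex5-depleted 1, 2 and 3, against 7.06, 4.44 and 2.94 CPM in control libraries 1, 2 and 3. Replicate 2 labelled Pex5-depleted lay among the controls and the other two above them. Its log2 value of 0.89 (SE 0.61; adjusted p = 0.598 by edgeR) had the widest 95% interval, -0.41 to 2.19, of the 8 tested genes. The 3′ part of zfh2 overlaps the gene called Thd1 in the UMI table and Tdg in Ensembl, on the opposite strand, with 2325 shared exonic bases. Whether the counting used strand is not given in the sources used here, so reads of the 2 genes may not be cleanly split. Thd1 had 8, 4 and 10 UMIs in libraries labelled Pex5-depleted 1, 2 and 3, against 11, 13 and 8 in control libraries 1, 2 and 3, where zfh2 had 35, 26 and 26 UMIs, against 26, 13 and 11.

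Tramtrack (ttk, FBgn0003870, chromosome 3R, 31713867 to 31735392, plus strand) is a BTB-domain zinc finger repressor that holds back enteroendocrine fate in midgut progenitors. It was at 9.07, 12.0 and 10.3 CPM in libraries labelled Pex5-depleted 1, 2 and 3, against 7.60, 12.6 and 15.8 CPM in control libraries 1, 2 and 3. All libraries labelled Pex5-depleted lay within the range of the controls. The fold on the log2 scale was -0.19 (SE 0.46), its 95% interval ran from -1.18 to 0.79, and the edgeR adjusted p was 0.905. Of the 27 enteroendocrine markers, 17 were tested. Of these, edgeR called 3 lower (7B2, Phm and Orcokinin) and 0 higher, beside 1.65% of all tested genes called in either direction. For Orcokinin the groups overlapped, at 179, 288 and 344 CPM in libraries labelled Pex5-depleted 1, 2 and 3. Control libraries 1, 2 and 3 had 2175, 1425 and 234 CPM of it. The median log2 fold change of the 17 was -1.12, and its relation to ttk was not tested.

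Snoo (FBgn0085450, chromosome 2L, 7891187 to 7984196, minus strand) is a Ski/Sno-family corepressor that works with Smad proteins. Its chi-square per degree of freedom was the lowest of the 9 in both groups, at 0.291 among the libraries labelled Pex5-depleted and 0.0048 among the controls. Snoo shares 70 exonic bases with CG7231 on the opposite strand, which had 367 UMIs. The level of Snoo was 10.2, 10.3 and 12.0 CPM in libraries labelled Pex5-depleted 1, 2 and 3, against 10.9, 10.9 and 10.7 CPM in control libraries 1, 2 and 3. Means of 10.8 ± 1.00 CPM and 10.8 ± 0.123 CPM (SD, n = 3 each) gave a log2 value of -0.0023 (SE 0.44; adjusted p = 0.999 by edgeR). As edgeR shares its spread estimate among genes of like level, the 95% interval still ran from -0.94 to 0.93, so a change of up to 1.91-fold is within it.

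Headcase (hdc, FBgn0010113, chromosome 3R, 30277932 to 30372382, plus strand) encodes a cytoplasmic protein that marks imaginal and adult progenitor cells. It was at 42.8, 39.7 and 45.5 CPM in libraries labelled Pex5-depleted 1, 2 and 3, against 34.7, 39.9 and 25.1 CPM in control libraries 1, 2 and 3. The groups overlapped by a narrow margin, between 39.7 CPM in replicate 2 labelled Pex5-depleted and 39.9 CPM in control replicate 2. Spread in the libraries labelled Pex5-depleted was at counting error (chi-square per degree of freedom 0.732), against 5.87 in the controls. The fold on the log2 scale was 0.36 (SE 0.27), its 95% interval ran from -0.22 to 0.94, and the edgeR adjusted p was 0.640.

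**Figure D2:**
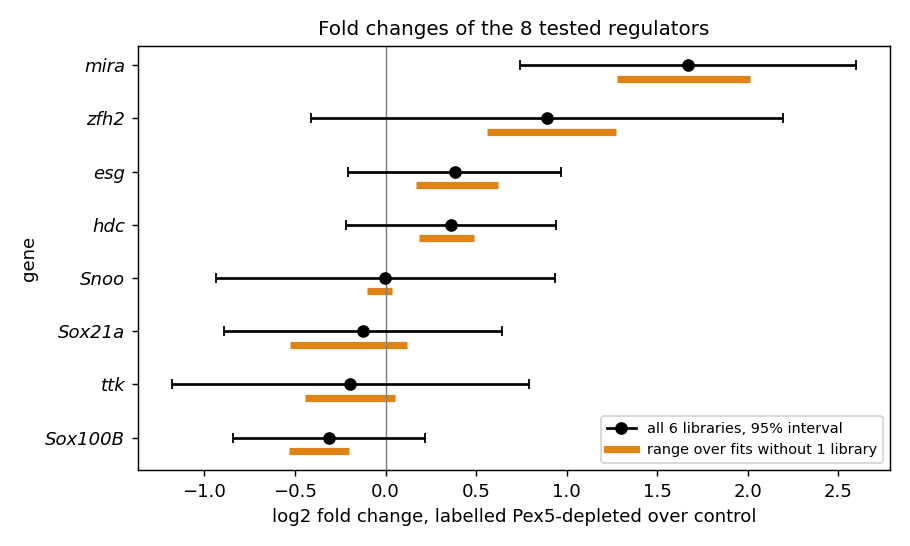
Log2 fold change (x axis, labelled Pex5-depleted over control) of the 8 tested regulators (y axis): points and black bars give the edgeR value and its 95% interval with all 6 libraries, and orange bars the range over the 6 fits that each leave out 1 library. The interval of mira runs from 0.74 to 2.60, and the other 7 intervals include 0.

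Of the 8 tested regulators, 4 (esg, Sox21a, mira and ttk) had their lowest level in control replicate 1, a library that held the lowest level of 18.0% of all tested genes. The highest level fell in replicate 1 labelled Pex5-depleted for 3 regulators and in replicate 3 of that group for 3 others, and each of these libraries held the highest level of 18.9% of all tested genes. Summed over all 9 genes, the regulators reached 314, 244 and 285 CPM in libraries labelled Pex5-depleted 1, 2 and 3, against 179, 272 and 274 CPM in control libraries 1, 2 and 3.

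Because the cells were sorted on esg-driven GFP, each regulator was also set against esg within its own library, which needs no scaling between libraries. The groups were separate for 2 of the 7 ratios, and for 18.8% of the ratios of all tested genes. mira stood at 135, 50.8 and 69.4 UMIs per 100 esg UMIs in libraries labelled Pex5-depleted 1, 2 and 3, against 19.3, 49.2 and 29.3 in control libraries 1, 2 and 3. The groups were separate by a small margin, between 50.8 and 49.2, and 2.48% of all tested genes were separate in this direction. The mean log2 difference was 1.36, and a two-sided exact permutation test gave p = 0.1, the smallest that 3 libraries against 3 allow, with 7 such ratios tested. ttk stood at 19.2, 22.6 and 15.5 UMIs per 100 esg UMIs in libraries labelled Pex5-depleted 1, 2 and 3, against 25.7, 29.8 and 28.4 in control libraries 1, 2 and 3. These ratios were also separate, as were 16.3% of all tested genes in this direction, with a mean log2 difference of -0.56 and an exact permutation p of 0.1. Each ratio also carries the level of esg, whose own log2 fold change in CPM was 0.38 (SE 0.28). That of ttk in CPM was -0.19 (SE 0.46), with overlapping groups, so the ratio does not show a fall of ttk by itself. For Sox21a, Sox100B, hdc, zfh2 and Snoo the ratios overlapped between groups, with exact permutation p from 0.2 to 0.9.

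**Figure D3:**
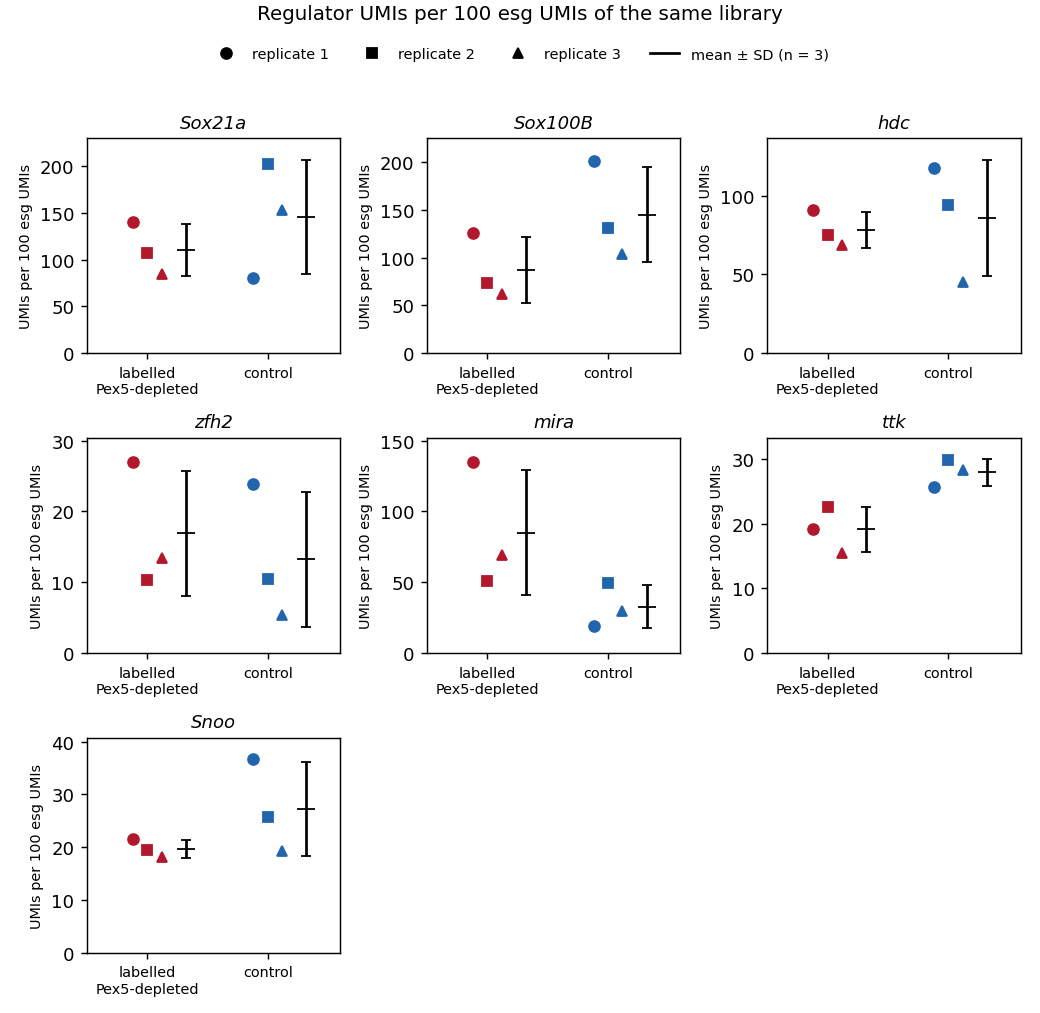
UMIs of each of the other 7 tested regulators per 100 esg UMIs of the same library (y axes, linear from 0), for the 3 libraries labelled Pex5-depleted on the left and the 3 controls on the right, with mean ± SD (n = 3 each). For mira the ratios labelled Pex5-depleted are 50.8 and above and the controls 49.2 and below; for ttk they are 22.6 and below, with the controls at 25.7 and above.

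The genes that work with these regulators were read from 3 companion lists, of other fate regulators, of asymmetric division and polarity genes, and of the Dpp and Activin branches of TGF-beta signalling. None of the tested genes in any list passed (0 of 26, 0 of 18 and 0 of 10 by edgeR, against 1.65% of all tested genes). At an unadjusted p under 0.05 edgeR had 0 of 26, 3 of 18 and 1 of 10, near the 13.2% of all tested genes or below it, and DESeq2 with adjustment called 0 in each list, against 3.96% of its genes. The medians of the log2 fold changes were 0.16, -0.19 and -0.06 in the order of the lists, beside 0.03 over all tested genes.

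Among the fate regulators the lowest p-values were those of dom, an ATP-dependent chromatin remodeller, of lola, a BTB-domain transcription factor, and of shg, the fly E-cadherin. Their log2 fold changes were -1.48 (SE 0.82), 0.52 (SE 0.35) and 0.50 (SE 0.35), with adjusted p by edgeR of 0.472, 0.588 and 0.600. Counts of dom were low, at 24, 3 and 4 UMIs in libraries labelled Pex5-depleted 1, 2 and 3. Control libraries 1, 2 and 3 had 26, 22 and 54 UMIs of dom, and the groups overlapped in CPM. Notch itself (N) was at 69.4 ± 18.4 CPM in the libraries labelled Pex5-depleted and 88.1 ± 20.5 CPM in the controls (SD, n = 3 each), or -0.34 on the log2 scale (SE 0.25). Of the 26 fold changes of this list 16 were positive and 10 negative.

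Of the partners of mira and spdo at the cell cortex, Galphai, baz and par-6 had the lowest p-values, and none passed. Galphai, a G protein subunit that orients the spindle with Pins, was at 27.6, 23.9 and 30.1 CPM in libraries labelled Pex5-depleted 1, 2 and 3, against 54.0, 54.6 and 30.4 CPM in control libraries 1, 2 and 3. The groups were separate only by the narrow gap to control replicate 3, in a direction in which 9.45% of all tested genes were separate, and the log2 fold change of -0.77 (SE 0.30) had an adjusted p of 0.263 by edgeR. baz, the fly Par-3, was at 27.6, 33.6 and 24.9 CPM in libraries labelled Pex5-depleted 1, 2 and 3, against 51.9, 48.8 and 36.9 CPM in control libraries 1, 2 and 3, which is -0.67 on the log2 scale (SE 0.27) at an edgeR adjusted p of 0.300. par-6, which binds aPKC at the opposite cortex from Miranda, was 1.54 higher on the log2 scale (SE 0.66) without passing, at an edgeR adjusted p of 0.327. Its level was low, at 13.8, 3.99 and 11.6 CPM in libraries labelled Pex5-depleted 1, 2 and 3. Against 4.34, 2.05 and 3.47 CPM in control libraries 1, 2 and 3, the groups overlapped. insc, an adaptor that links the Par complex to the spindle machinery, was at 0.44 (SE 0.34), and brat, which encodes a cargo of Miranda, at -0.93 (SE 0.55). Of the 18 tested genes of this list, 8 fold changes were positive and 10 negative.

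Genes of the pathways in which Snoo acts gave 4 positive and 6 negative fold changes among 10. Smox, the Smad of the Activin branch, was at 59.9, 64.1 and 48.5 CPM in libraries labelled Pex5-depleted 1, 2 and 3, against 32.3, 42.6 and 36.1 CPM in control libraries 1, 2 and 3. All 3 libraries labelled Pex5-depleted lay above the controls, as they did for 9.72% of all tested genes. The log2 fold change of Smox, 0.64 (SE 0.25), did not pass (adjusted p = 0.270 by edgeR). Mad, the Smad of the Dpp branch, and tkv, a Dpp receptor, had log2 fold changes of 0.91 (SE 0.50) and 1.43 (SE 0.84) with adjusted p of 0.468 and 0.515 by edgeR. Counts of tkv were low, at 12, 33 and 15 UMIs in libraries labelled Pex5-depleted 1, 2 and 3. Control libraries 1, 2 and 3 had 1, 6 and 14 UMIs of tkv.

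**Figure D4:**
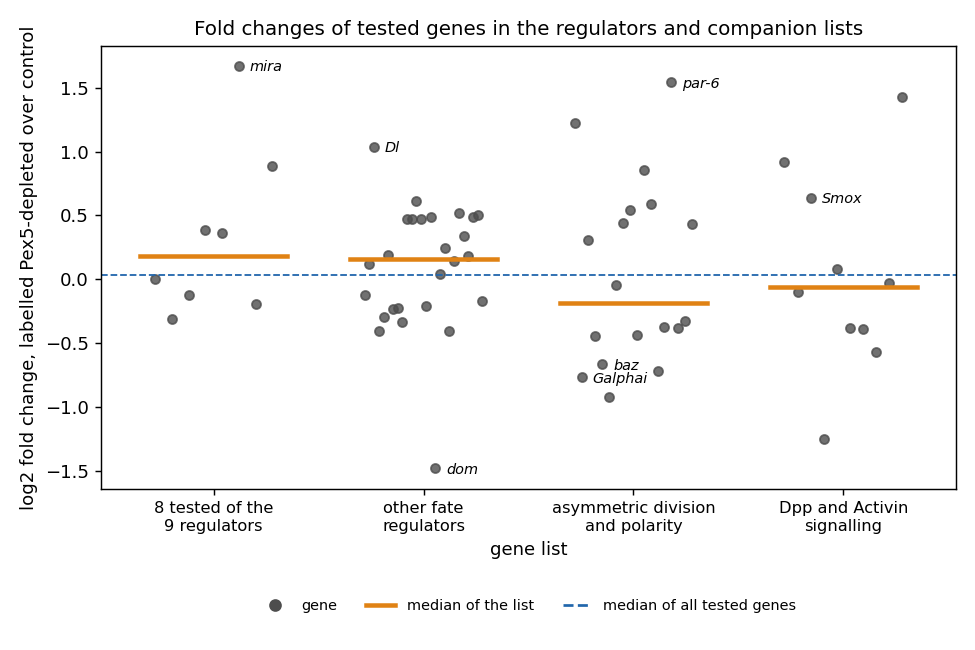
Log2 fold change (y axis, labelled Pex5-depleted over control) of each tested gene among the regulators and in the 3 companion lists (x axis), with the median of each list in orange and the median of all tested genes, 0.03, as a dashed line. The list medians lie between -0.19 and 0.18, and no gene shown passed the threshold.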

How the data were processed

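Per the labels, libraries were made with a QIAseq UPX 3′ kit. The authors deposited UMI counts per gene and well index, with reads at several loci dropped, per the file headers of the run metrics; HISAT2, StringTie and DESeq2 are named without role or version, beside build dm6, per the submitters' processing notes. The 29 other well-index columns and 7 spike-in UMIs were not used. Nothing ties equally numbered replicates together, and p-values weigh a group difference against the spread between these libraries.

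Counts were fitted with edgeR 4.0.16 in R 4.3.3 (TMM, edgeR's expression filter with a minimum count of 10, quasi-likelihood F test, no covariate, Benjamini-Hochberg over 5639 genes, threshold 0.05). SE is the log2 fold change over the square root of F. In data simulated for this comparison over 5639 genes, 25% of planted 2-fold and 62% of planted 4-fold changes were recovered, with 7 false calls. DESeq2 1.42.0 and limma-voom (limma 3.58.1) were alternatives, with other scalings and filters, a replicate block and fits without 1 library. The 95% intervals of fold changes include the spread between libraries, while Poisson intervals and floors cover counting error only.

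Gene ends equalled those of Ensembl release 115 for all 9 regulators; esg was matched by symbol there, since its identifier differs. The regulators and lists were chosen with earlier results of these data known. Besides the regulators, genes were named for the lowest 3 p-values of each companion list, as cell type markers, or for the likeness of their levels; N, insc and brat, and genes overlapping a regulator, were added after their values were seen. The authors' deposited table gives a signed fold score and p-values without naming the sides, per the file headers, and entered no test.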

Additional observations from a re-analysis of the deposited data

How the results depend on the processing

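The log2 fold changes of esg, Sox100B, hdc and zfh2 kept their sign and stayed short of the threshold in all 13 alternatives run. For mira the sign held in all 13, and it passed with no count filter (1.61) and with DESeq2 (1.65), so 1 regulator passed in each of those; in fits without 1 library it lay between 1.28 and 2.01 and the number of regulators past the threshold between 0 and 1. With the replicate number as a block, mira was at 1.71 with an adjusted p of 0.127 by edgeR, Sox21a at 0.041, and 58 genes were called in all, against 93 without the block. Same-numbered libraries did not deviate together (correlations of -0.0137, -0.0520 and 0.0124), so the numbers were not taken as pairs. Sox21a also turned positive with limma-voom (0.10). In fits without 1 library Sox21a lay between -0.53 and 0.12, ttk between -0.45 and 0.050, Snoo between -0.10 and 0.036, and the count over all genes between 17 (without control replicate 1) and 80. That count was 197 with no count filter and 198 with DESeq2; the cause was not tested. No companion list gene passed in any alternative. Depth limits spdo, at 33 UMIs, and zfh2, at 137.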

Other observations

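Levels most like those of esg over the 6 libraries, by Pearson correlation of log2 CPM, were those of Hsp70Bb (r = 0.98), PGAP3 (r = 0.98) and Hsp26 (r = 0.98), and 18 tested genes had an r above 0.95. Hsp70Bb is one of several near-identical copies, so its own count is uncertain. Hsp26, a small heat shock protein gene, was at 16042, 19064 and 22052 CPM in libraries labelled Pex5-depleted 1, 2 and 3, against 7420, 12613 and 17014 CPM in control libraries 1, 2 and 3. Levels most like those of mira were those of GluRIB, Spt3 and Pih1D1 (r = 0.99, 0.98 and 0.98), among 29 tested genes with an r above 0.95. These genes were picked as the closest of 5639, over 6 points in 2 groups, and are a description.

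In the authors' deposited table, whose sides are not named, the signed fold was 5.23 for zfh2, 2.62 for Snoo, 2.57 for hdc and 1.38 for ttk. In the same authors' deposited table it was -1.16 for mira, -1.48 for Sox21a, -1.97 for esg, -2.23 for Sox100B and -2.99 for spdo. That table gives 85.9% of its genes a false discovery rate under 0.05, and of the 93 genes called by edgeR from the counts it lists 89, with the same sign for 48 and the opposite sign for 41. mira, with the lowest p of the regulators in the counts, has the only false discovery rate of 0.05 or more among the 9 in the authors' deposited table (0.122).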
